A study of Homo sapiens with 12 samples.

Results

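CHAGO is a human lung cancer cell line, known for making the alpha chain of the glycoprotein hormones, and its 3 RNA-seq libraries are described here out of the 12 of the study. They were taken by cell line and state as the labels give them: 1 library of TICs (tumor-initiating cells, a subset with the capacity to start a tumor) with PRKCI knocked down, 1 of TICs and 1 of parental cells, which the labels call adherent. The other 9 libraries hold the same 3 states of the lines H1703, H1299 and CALU. By its title the study concerns TICs of lung squamous cell carcinoma and Hedgehog signalling that depends on PRKCI. The sources used here do not say how the TICs were grown, how PRKCI was knocked down, whether a line is 1 clone, or which control the libraries without knockdown received. A parental state with the knockdown, which the design text lists, was not analysed here.

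The product of PRKCI, an atypical kinase of the protein kinase C family named iota, forms the apical polarity complex with PAR6 and PAR3, and its gene lies in a stretch of chromosome 3q that is often amplified in squamous lung cancer together with SOX2, TP63 and ECT2. Hedgehog ligands are palmitoylated by HHAT and released by DISP1, bind PTCH1, and so free SMO to act through the GLI transcription factors, with SUFU as a restraint. Tumor-initiating cells are usually enriched by growth without attachment, in which survival and growth factor signals, adhesion molecules and lipid synthesis are known to be altered.

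With 1 library for each state, the CHAGO states are compared without a test, and each such difference below is between 2 libraries with no replicate check. The libraries held 78.7 M counted reads for knockdown TICs, 83.3 M for TICs and 63.8 M for parental cells, within the range of 21.2 to 91.8 M over the 12 libraries. Levels are counts scaled to depth with TMM factors (CPM, per M reads), and a gene entered where its mean over the 3 CHAGO libraries was at least 1 CPM, which 11887 genes did. Folds are given with their 95% counting interval, which covers counting error only, since the reads carry no molecular identifiers. Log2 ratios were formed after adding 0.25 CPM, which draws low genes toward 0. Across these genes the 3 CHAGO libraries correlated at 0.877 to 0.935 in log2 CPM, and CHAGO with other lines at 0.714 to 0.782 (27 pairs). All 14 markers of epithelial cells entered, with summed levels of 3940 CPM in knockdown TICs, 3980 CPM in TICs and 2950 CPM in parental cells, and CGA, the hormone alpha chain, stood at 188, 236 and 73.5 CPM in that order of states. The 11 leukocyte markers summed to 149, 99.6 and 1.2 CPM, nearly all of it CD68 in both TIC libraries, while PTPRC, which defines leukocytes, had 3, 5 and 24 reads, and the 10 fibroblast markers summed to 2.39, 4.76 and 38.4 CPM, of which COL3A1 was 0.514, 2.28 and 32.3 CPM. In such bulk RNA, fewer cells of a type and less RNA per cell cannot be told apart, and the part of these markers in the differences below was not tested.

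Past 2-fold, 1083 genes were higher and 1251 lower in knockdown TICs than in TICs, 9.11% and 10.5% of the genes entered, or 19.6% either way. In TICs against parental cells 1644 were higher and 1675 lower (13.8% and 14.1%, or 27.9% either way), and in knockdown TICs against parental cells 1591 were higher and 1826 lower (13.4% and 15.4%, or 28.7% either way). Each library enters 2 of these 3 comparisons, so their values are set side by side and not compared. A gene that entered only through the library where it is high had to differ, so the counts and medians of lists below describe the members and support nothing further. The share past 2-fold depended on the level of the gene. Among 2833 genes with a mean of 1 to 5 CPM it was 45.8% for knockdown TICs over TICs and 52.1% for TICs over parental cells, while among 2440 genes with a mean of at least 100 CPM it was 0.943% and 8.93%. At that level the TICs of CHAGO with and without the knockdown thus differed past 2-fold in 23 genes, 9 higher and 14 lower in knockdown TICs. The same share in the other lines stood at 3.0% for H1703, 4.24% for H1299 and 9.39% for CALU. Single low genes also stood at 0 in one library and at over 100 reads in another, as VIM did with 0 reads in knockdown TICs, 162 in TICs and 0 in parental cells, which counting error does not cover. The authors' mode-normalized scaling moved the median of all genes by −0.0724 for knockdown TICs over TICs, by −0.289 for TICs over parental cells and by −0.359 for knockdown TICs over parental cells. The share of calls that were higher was then 41.4%, 33.1% and 27.6%, against 46.4%, 49.5% and 46.6% with TMM, and list medians smaller than these shifts are given without a direction.

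**Figure D1:**
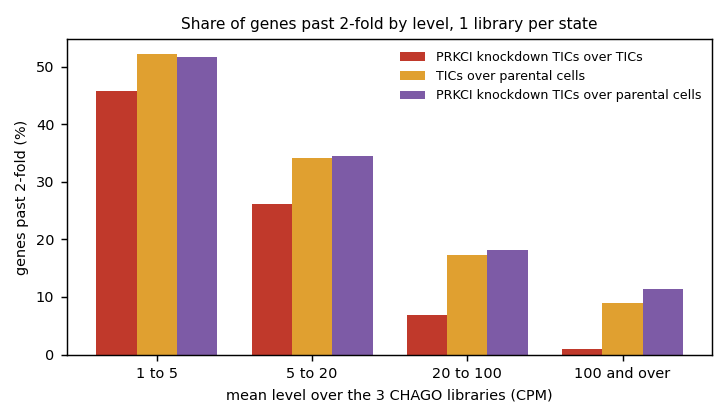
Bars show the percentage of genes past 2-fold in each of the 3 comparisons of the CHAGO libraries (y axis) for genes grouped by their mean level over the 3 libraries in CPM (x axis). Every comparison has its highest share at 1 to 5 CPM, and knockdown TICs over TICs reach 0.943% at 100 CPM and over.

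PRKCI itself, the targeted gene, had the lowest ratio of knockdown TICs over TICs among the 2440 genes with a mean of at least 100 CPM. It had 1758 reads in knockdown TICs, 49715 in TICs and 23781 in parental cells, or 23.2, 607 and 356 CPM. The knockdown library was the lowest of the 3, 26.2-fold below TICs (fold 0.0382, interval 0.0364 to 0.0401) and 15.3-fold below parental cells, while TICs were 1.71-fold above parental cells (1.68 to 1.73).

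Of the 22 Hedgehog genes in the table, 10 entered, and the ligand genes SHH, IHH and DHH had no read in any CHAGO library. HHAT, the acyltransferase of the ligands, had 118 reads in knockdown TICs, 624 in TICs and 127 in parental cells, so that TICs alone were high: knockdown TICs were 4.90-fold lower than TICs (fold 0.204, 0.166 to 0.249) and TICs 4.01-fold higher than parental cells (3.31 to 4.89). GLI1, a direct target of the pathway, had 0, 65 and 0 reads, which makes TICs at least 17.7-fold higher than parental cells and knockdown TICs at least 20.1-fold lower than TICs against a floor of 3 reads in the empty library. Both genes were thus highest in TICs. HHAT has a mean of 1 to 5 CPM, where 45.8% of all genes differed past 2-fold between knockdown TICs and TICs, and GLI1 lies below that range.

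Among genes that did not enter, HHIP, a target that binds the ligands, had 0, 50 and 4 reads, GPR161, a receptor of the primary cilium, 19, 95 and 2 reads, and EVC 22, 49 and 30 reads, all with the most in TICs. They were picked after their values were seen and rest on few reads. SMO, which did not enter either, had its only reads in knockdown TICs.

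The other genes of the pathway divided. PTCH1, receptor and target, was also highest in TICs but by less, with 21 CPM in knockdown TICs, 27.7 CPM in TICs and 21.9 CPM in parental cells, 0.757 times as high in knockdown TICs as in TICs (0.710 to 0.808), and CDON, a coreceptor, stood at 4.21, 7.96 and 7.27 CPM. GLI2 was highest in knockdown TICs, with 195 reads against 32 in TICs and 8 in parental cells, and GLI3 stood at 30.4, 30.2 and 24.7 CPM. SMO, which carries the signal across the membrane, had 13 reads in knockdown TICs and 0 in both others. SUFU stood at 3.66, 8.52 and 19.7 CPM, STK36, a kinase that acts on GLI, at 2.41, 11.5 and 28.2 CPM, and DISP1 at 7.5, 1.73 and 13.1 CPM. Over the 10 that entered, 2 were past 2-fold higher and 4 lower in knockdown TICs than in TICs, with a median log2 ratio of −0.83, and 1 higher and 4 lower in TICs than in parental cells.

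The neighbours of PRKCI on 3q did not move as a block. Of 25 genes from this arm, PRKCI and SOX2 were the 2 past 2-fold lower in knockdown TICs than in TICs and none was past 2-fold higher, with a median of −0.02. SOX2, a transcription factor of squamous lineage, had a level in each library unlike the next, with 178 reads in knockdown TICs, 455 in TICs and 1135 in parental cells: knockdown TICs were 2.37-fold below TICs, and TICs 3.06-fold below parental cells (fold 0.327, 0.293 to 0.365). ECT2, a guanine nucleotide exchange factor bound by PKC iota, had 1030 CPM in knockdown TICs, 1080 CPM in TICs and 480 CPM in parental cells. TP63, the squamous master regulator, was high in both TIC libraries, at 43.8 and 36.1 CPM, against 4.25 CPM in parental cells, 8.51-fold higher in TICs (7.53 to 9.64). Among 17 genes of protein kinase C and its polarity partners, 5 were past 2-fold lower and 1 higher in knockdown TICs than in TICs (median −0.70): PARD3B, a PAR3 relative, at 1.54 against 12.7 CPM, PRKCA at 14.3 against 47.0 CPM, PRKCZ at 7.33 against 16.1 CPM and PRKCD at 8.19 against 17.1 CPM were lower beside PRKCI, and PRKCH at 47.2 against 19.1 CPM was higher.

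Both TIC libraries held genes that parental cells nearly lacked. By the margin to both other libraries, the 10 genes lowest in parental cells included LOC100507127, CD68, LIPG, SPINK6, IL8, NT5E, CALB2, LAMB3 and FOSL1. CD68, a lysosomal glycoprotein best known from macrophages, had 10982 reads in knockdown TICs, 7936 in TICs and 6 in parental cells, 1079-fold higher in TICs than in parental cells (495.6 to 2942); of the other leukocyte markers, CD14 had 307, 0 and 50 reads, ITGAM 0, 219 and 0 reads, PTPRC few in each library, and the remaining 7 of the 11 had none. NT5E, an ectonucleotidase that makes adenosine at the cell surface, stood at 458, 338 and 2.83 CPM, 119-fold higher in TICs (103 to 138). LIPG, a lipase of the endothelial type, had 7544, 5356 and 1 reads, and SPINK6, an inhibitor of skin kallikreins, 5787, 2929 and 1 reads, too few in parental cells to size the ratio. IL8, the neutrophil chemokine CXCL8, had 5940, 2462 and 0 reads, at least 670-fold higher in TICs than in parental cells. LAMB3, a chain of the basement membrane laminin of epithelia, stood at 212, 88.9 and 0.958 CPM, and FOSL1, a FOS-related subunit of the AP-1 transcription factor, at 31.8, 24.5 and 0.105 CPM. In all 10 the 2 TIC libraries lay far above the parental one, by construction of the choice.

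**Figure D2:**
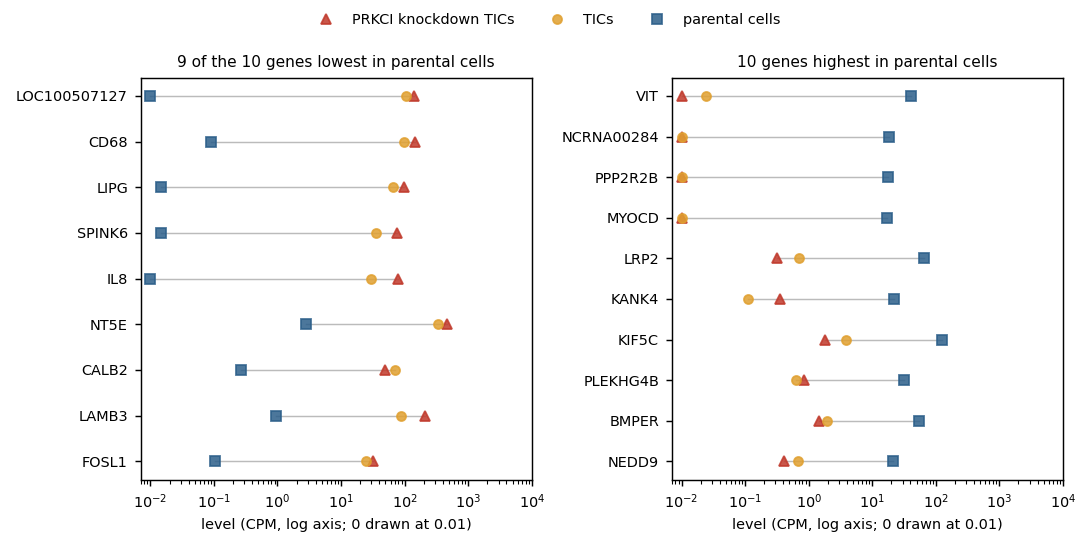
Points show the level of each gene in CPM (log x axis, 0 drawn at 0.01) in the knockdown TIC, TIC and parental library of CHAGO, with 1 library per point; the left panel has 9 of the 10 genes lowest in parental cells and the right panel the 10 highest there. On the left both TIC libraries lie far above the parental one, as for CD68 at 145 and 96.9 CPM against 0.0898 CPM. On the right the order is turned, as for KIF5C at 1.81 and 3.91 CPM against 125 CPM.

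As FOSL1, an AP-1 subunit, was among these genes, the promoters RefSeq gives for them were searched on both strands for TGANTCA. Each promoter ran from 250 bases before to 50 bases after the gene start (build GRCh38.p14). TGANTCA is a palindrome and a loose form of the AP-1 site TGACTCA or TGAGTCA, as N takes any base. This loose form is held by 7.76% of all 27305 promoters. A promoter was found for 6 of the 10 genes and 3 of these held the loose form, those of IL8, CD68 and SPINK6, the last as TGAATCA. Among the integrin and laminin genes described below it was in 2 of 14 promoters, LAMA3 with 2 matches being one. It was in 2 of 9 of the cytokine list, IL8 included, and in 1 of 8 of the EGF receptor family ligands. Of the ERK genes, the list that holds FOSL1, it was in 0 of 9, and of the sterol genes in 0 of 17. Of the promoters that carry it 4 are shown with the match in capitals; all lie on the plus strand, IL8 at chr4:73740319-73740618, SPINK6 at chr5:148202528-148202827, CD68 at chr17:7579388-7579687 and LAMA3 at chr18:23872770-23873069.
IL8: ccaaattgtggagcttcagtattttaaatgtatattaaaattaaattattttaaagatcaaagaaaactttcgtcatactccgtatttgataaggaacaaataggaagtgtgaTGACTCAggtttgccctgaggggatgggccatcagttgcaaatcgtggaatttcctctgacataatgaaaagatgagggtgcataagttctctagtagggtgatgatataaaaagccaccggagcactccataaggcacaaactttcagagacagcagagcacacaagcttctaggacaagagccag
SPINK6: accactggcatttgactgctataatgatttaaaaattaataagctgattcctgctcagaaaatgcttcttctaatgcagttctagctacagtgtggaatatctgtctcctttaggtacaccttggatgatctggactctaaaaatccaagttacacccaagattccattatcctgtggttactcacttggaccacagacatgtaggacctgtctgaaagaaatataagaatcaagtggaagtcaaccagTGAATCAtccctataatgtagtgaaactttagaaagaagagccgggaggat
CD68: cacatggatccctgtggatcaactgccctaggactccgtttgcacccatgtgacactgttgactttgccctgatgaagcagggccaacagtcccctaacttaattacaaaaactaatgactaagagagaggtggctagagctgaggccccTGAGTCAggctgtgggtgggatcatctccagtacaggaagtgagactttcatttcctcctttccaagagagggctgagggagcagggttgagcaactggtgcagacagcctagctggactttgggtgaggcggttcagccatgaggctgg
LAMA3: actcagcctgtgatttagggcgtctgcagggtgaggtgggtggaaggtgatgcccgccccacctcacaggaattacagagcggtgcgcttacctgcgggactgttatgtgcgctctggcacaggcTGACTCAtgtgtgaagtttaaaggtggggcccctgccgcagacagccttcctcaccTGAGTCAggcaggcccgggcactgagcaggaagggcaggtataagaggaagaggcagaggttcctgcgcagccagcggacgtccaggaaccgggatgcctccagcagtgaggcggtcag
The match began at −137 in IL8, at −1 in SPINK6, at −100 in CD68 and at −125 and −69 in LAMA3, counted from the gene start. A match is a description of these letters, and binding was not measured. The genes were chosen by their values in these libraries and the motif because FOSL1 was among them. The 3 of 6 is therefore no test against the 7.76% of all promoters. The sterol regulatory element TCACNCCAC, which 1.15% of all promoters hold, was in 0 of 17 promoters of the sterol genes described below. A promoter was found for only 17 of the 23 that entered. With so rare a motif 17 promoters are too few for the 0 to say anything about these genes.

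Genes that mark and restrain ERK signalling were higher in TICs nearly throughout. Of 17 that entered, 15 were past 2-fold higher and 0 lower in TICs than in parental cells, with a median log2 ratio of 2.43 against 0.03 over all genes. DUSP5, a nuclear phosphatase of ERK, had 2596 reads in knockdown TICs, 1539 in TICs and 3 in parental cells. PHLDA1 stood at 983, 700 and 43.5 CPM, IER3 at 1250, 1248 and 96.2 CPM, SPRY4, a feedback inhibitor of receptor tyrosine kinases, at 305, 243 and 36.4 CPM, and the ERK phosphatase DUSP6 at 116, 111 and 18.2 CPM. MYC was the one member below its parental value, with 32.5 CPM in TICs and 53.4 CPM in parental cells. Here 0 of 17 were past 2-fold either way in knockdown TICs against TICs, with a median of 0.15, and 12 were higher and 0 lower in knockdown TICs against parental cells.

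Most ligands of the EGF receptor family, which feeds this pathway, were higher in TICs as well. Of 8 that entered, 6 were past 2-fold higher and 0 lower in TICs than in parental cells, with a median of 3.10. AREG (amphiregulin) stood at 84.0 CPM in knockdown TICs, 62.7 CPM in TICs and 1.05 CPM in parental cells, 59.9-fold higher in TICs than in parental cells (47.3 to 77.0). HBEGF stood at 110, 69.4 and 6.91 CPM and TGFA at 48.8, 32.0 and 4.01 CPM. EGF ran the other way, at 9.02, 28.5 and 33.9 CPM, and so did the neuregulin NRG4, at 15.4, 29.6 and 46.9 CPM. EGF and EREG were the 2 members past 2-fold lower in knockdown TICs than in TICs. EGFR itself stood at 635, 496 and 866 CPM, and EPHA2, an ephrin receptor tyrosine kinase, at 460, 305 and 56.3 CPM. FGFR2 was high in parental cells alone, at 6.76, 2.50 and 64.7 CPM.

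Most integrin and laminin chains were higher in both TIC libraries than in parental cells. Of 17 integrin and laminin chains, 12 were past 2-fold higher and 0 lower in TICs than in parental cells (median 2.18), and likewise 12 and 0 in knockdown TICs against parental cells. ITGA6, a laminin receptor chain also used as a stem cell marker, stood at 2032 CPM in knockdown TICs, 1992 CPM in TICs and 218.5 CPM in parental cells, 9.11-fold higher in TICs (8.96 to 9.27). LAMA3, another laminin chain of epithelia, stood at 185, 189 and 26.9 CPM and ITGB1, the common beta chain, at 453, 536 and 129 CPM. ITGB8 and LAMB3 were the 2 members past 2-fold higher in knockdown TICs than in TICs: ITGB8, which with ITGAV frees TGF-beta from its latent form, stood at 1270 CPM in knockdown TICs, 580 CPM in TICs and 36.2 CPM in parental cells. SERPINE2, an inhibitor of plasminogen activators and thrombin, stood at 163, 379 and 8.21 CPM, 46.2-fold higher in TICs than in parental cells (42.4 to 50.3) and 2.33-fold lower in knockdown TICs than in TICs.

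**Figure D3:**
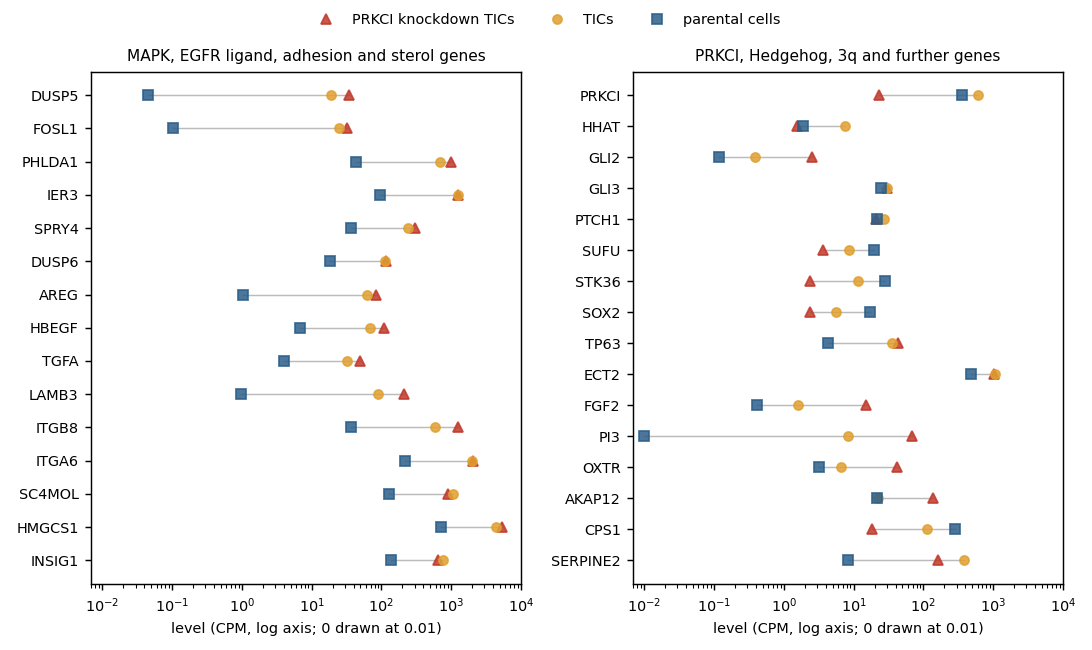
Points show levels in CPM (log x axis, 0 drawn at 0.01) in the knockdown TIC, TIC and parental library of CHAGO, 1 library per point; ERK, EGF receptor ligand, adhesion and sterol genes are on the left, and PRKCI, Hedgehog, 3q and further genes on the right. On the left knockdown TICs and TICs both lie to the right of parental cells (AREG at 84.0 and 62.7 against 1.05 CPM). LAMB3 and ITGB8 there are also past 2-fold higher in knockdown TICs than in TICs. On the right PRKCI, FGF2, OXTR, AKAP12 and CPS1 part the 2 TIC libraries.

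Sterol synthesis and uptake was higher in TICs along almost the whole pathway. Of 23 genes, 18 were past 2-fold higher and 0 lower in TICs than in parental cells (median 1.60), and 18 and 1 in knockdown TICs against parental cells. HMGCS1, which makes HMG-CoA, stood at 5410 CPM in knockdown TICs, 4390 CPM in TICs and 715 CPM in parental cells, 6.14-fold higher in TICs (6.08 to 6.20). SC4MOL, a sterol methyl oxidase, stood at 904, 1060 and 130 CPM, and INSIG1, which holds back sterol regulatory element binding proteins, at 655, 757 and 139 CPM. Against TICs the knockdown library differed past 2-fold in 1 of the 23, MVK (mevalonate kinase), at 1.19 against 5.48 CPM; DHCR7, the last reductase of cholesterol synthesis, stood at 58.9 against 114 CPM, 1.94-fold lower. Of the fatty acid synthesis genes, 3 of 18 were past 2-fold higher and 1 lower in TICs than in parental cells (median 0.57), with FASN at 118 against 57.5 CPM and ACACB, the mitochondrial form of acetyl-CoA carboxylase, at 11.6 against 30.6 CPM. In knockdown TICs against parental cells that list's median was 0.35 with TMM and of the other sign with mode-normalized values.

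Most keratins and genes of squamous differentiation that entered were higher in both TIC libraries than in parental cells. Of 13 keratins, 10 were past 2-fold higher and 0 lower in TICs than in parental cells (median 1.78). In knockdown TICs against TICs 5 were past 2-fold higher and 0 lower, beside 9.11% and 10.5% of all genes. The other 8 lay below 0 by less than 2-fold, with a list median of −0.151. KRT19 stood at 51.7 CPM in knockdown TICs, 70.3 CPM in TICs and 9.20 CPM in parental cells, and KRT8 at 81.5, 106 and 51.0 CPM. The keratins of stressed and squamous epithelium were highest in knockdown TICs, with KRT6A at 43.5, 20.2 and 0.254 CPM, KRT16 at 16, 6.54 and 0.494 CPM and KRT17 at 11.5, 3.22 and 0.419 CPM; these genes have near copies, so the origin of their reads is uncertain. KRT5 and KRT14, the basal keratins, did not enter, with 191 and 187 reads in knockdown TICs, 32 and 43 in TICs and 1 and 0 in parental cells. IVL (involucrin), a protein of the cornified envelope, had 504 reads in knockdown TICs, 3 in TICs and 0 in parental cells, and DSG3, a desmoglein of stratified epithelium, stood at 30.3, 6.86 and 4.01 CPM. In squamous differentiation as a list, 8 of 13 were past 2-fold higher and 1 lower in TICs than in parental cells, and 3 higher and 1 lower in knockdown TICs than in TICs.

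The S100 genes did not keep 1 direction over the 3 states. All 13 S100 genes that entered had a ratio above 0 in TICs over parental cells, 10 of them past 2-fold (median 1.85). In knockdown TICs against TICs 1 was past 2-fold higher, S100A2 at 29.9 against 8.70 CPM, and 4 were lower. Among these 4 were S100A8 at 15.0 against 40.3 CPM and S100A9 at 15.0 against 32.4 CPM, which form calprotectin. Junction genes were closer to even, with 4 of 16 past 2-fold higher and 0 lower in TICs than in parental cells: CDH3 (P-cadherin) stood at 61.1 CPM in knockdown TICs, 76.3 CPM in TICs and 10.7 CPM in parental cells, while CDH1 (E-cadherin) stood at 1100, 824 and 889 CPM. OVOL1, a repressor that keeps epithelial identity, stood at 16.3, 13.6 and 0.239 CPM.

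Among chemokines, cytokines and other genes of the NF-kB response, IL6 and IL8 were highest in knockdown TICs and lowest in parental cells. Of 11 that entered, 7 were past 2-fold higher and 2 lower in TICs than in parental cells (median 1.33). In knockdown TICs against TICs 5 were higher and 0 lower, and 11 of 11 lay above 0 with TMM (median 0.91). Of these 11, LIF lay at 0.0234, smaller in size than the shift of −0.0724 with mode-normalized values, and CCL2 had 4 against 1 reads. IL6 stood at 118 CPM in knockdown TICs, 45.7 CPM in TICs and 6.81 CPM in parental cells, 2.59-fold higher in knockdown TICs than in TICs (2.50 to 2.69), and IL8 was 2.60-fold higher (2.48 to 2.73). TNFAIP3, a brake on NF-kB, stood at 22.9, 12.1 and 0.748 CPM, and BIRC3, an inhibitor of apoptosis induced by NF-kB, at 187, 126 and 15.8 CPM. LIF, a cytokine of the IL-6 family, stood at 17.6, 17.3 and 0.0299 CPM, and NFKBIZ, a nuclear regulator of NF-kB, was low in TICs, at 22.8, 4.81 and 22.5 CPM. CCL2, which attracts monocytes, was found in parental cells almost alone, with 4, 1 and 735 reads. TNF and CXCL1 had no read in any CHAGO library. HLA class I and peptide loading genes were past 2-fold higher in 5 of 13 and lower in 1 of 13 in TICs against parental cells, with TAP1, a peptide transporter, at 11.1, 13 and 1.18 CPM; HLA genes resemble each other, so their reads are uncertain in origin. Of 22 interferon-stimulated genes 5 were past 2-fold higher and 5 lower in TICs against parental cells. Most of them had means under 20 CPM. Of all genes, 52.1% at 1 to 5 CPM and 34.1% at 5 to 20 CPM passed 2-fold either way, so this count describes no trait of the list.

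Hypoxia genes were past 2-fold higher in 11 of 19 and lower in 1 of 19 in TICs against parental cells (median 1.05). NDRG1 stood at 94.8 CPM in knockdown TICs, 129 CPM in TICs and 21.9 CPM in parental cells, and VEGFA at 31.7, 48.3 and 12.9 CPM. BHLHE41, a clock-related repressor, was the one lower, at 19.5, 16.9 and 66.7 CPM. Of 11 genes of the BCL2 family, which holds both protectors and promoters of cell death, 5 were past 2-fold higher and 0 lower in TICs than in parental cells. The protectors among them were BCL2, at 19.4, 32.9 and 11.1 CPM, MCL1 at 1280, 1420 and 375 CPM and BCL2L1 at 34.9, 38.9 and 3.74 CPM. The promoters of death were BBC3 (PUMA), at 2.21, 1.37 and 0.105 CPM, and PMAIP1 (NOXA), at 58.8, 39.5 and 16.8 CPM. CDKN1A, the cell cycle inhibitor p21, stood at 72.8, 41.5 and 2.95 CPM, while the p53 targets as a list had 6 of 18 higher and 1 lower (median 0.26).

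Genes high in parental cells and low in both TIC libraries came from other classes. The 10 with the widest margin were VIT, NCRNA00284, PPP2R2B, MYOCD, LRP2, KANK4, KIF5C, PLEKHG4B, BMPER and NEDD9. MYOCD (myocardin), a coactivator of serum response factor, had 0 reads in knockdown TICs, 0 in TICs and 1145 in parental cells, at least 468-fold lower in TICs than in parental cells. PPP2R2B, a regulatory subunit of protein phosphatase 2A, had 0, 0 and 1168 reads. LRP2 (megalin), an endocytic receptor, stood at 0.316, 0.708 and 65.8 CPM, and KIF5C, a kinesin motor, at 1.81, 3.91 and 125 CPM, 32.1-fold lower in TICs (fold 0.0312, 0.0278 to 0.0348). VGLL3, a cofactor of TEAD factors which is outside these 10, was far more abundant, with 83017, 57387 and 366645 reads, 7.83-fold lower in TICs than in parental cells.

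Matrix and BMP genes followed this direction in part. Among 6 collagens 3 were past 2-fold lower and 2 higher in TICs than in parental cells, COL12A1 at 1.96 CPM in knockdown TICs, 0.146 CPM in TICs and 28.5 CPM in parental cells and COL3A1 as given above being lower, and COL17A1, the collagen of hemidesmosomes, at 24.1, 22.5 and 9.16 CPM being higher. Among 11 mesenchymal genes 4 were lower and 2 higher (median −0.69), with FN1 (fibronectin) at 2.23, 0.696 and 7.30 CPM; VIM and SPARC did not enter. In the BMP and TGF-beta list 5 of 15 were higher and 5 lower: the BMP targets ID2, at 2.20, 2.05 and 25.9 CPM, and ID3, at 3.61, 4.38 and 39.6 CPM, were low in both TIC libraries, while BMP6 was high in both, at 16.4, 15.4 and 0.598 CPM. The targets of YAP and TEAD divided likewise, 5 of 18 higher (NT5E among them) and 4 lower (VGLL3, THBS1, IGFBP3 and JUB).

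Cell cycle genes, most of which had means of at least 20 CPM, are to be read against the share of all genes past 2-fold at that level, which was 6.93% (20 to 100 CPM) and 0.943% (100 CPM and over) for knockdown TICs over TICs and 17.2% and 8.93% for TICs over parental cells. Of 28 genes of G1/S and DNA replication, 1 was past 2-fold higher (CCNE1, cyclin E1, at 51.5 CPM in TICs and 25.5 CPM in parental cells) and 1 lower in TICs than in parental cells, with a median of 0.01, and 0 either way in knockdown TICs against TICs. Of 27 genes of G2/M and mitosis, 2 were higher and 0 lower in TICs (median 0.38), and 0 either way in knockdown TICs against TICs. MKI67 stood at 597 CPM in knockdown TICs, 863 CPM in TICs and 621 CPM in parental cells. In TICs over parental cells the same 28 genes had medians of −0.76, −1.57 and −1.96 in H1703, H1299 and CALU, and the same 27 had −0.44, −1.52 and −2.76, a difference from CHAGO that was not tested for the lists. Subunits of the respiratory chain stayed within 2-fold in 27 of 27 genes in each comparison, with a median of 0.17 in TICs over parental cells that had the other sign with mode-normalized values.

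**Figure D4:**
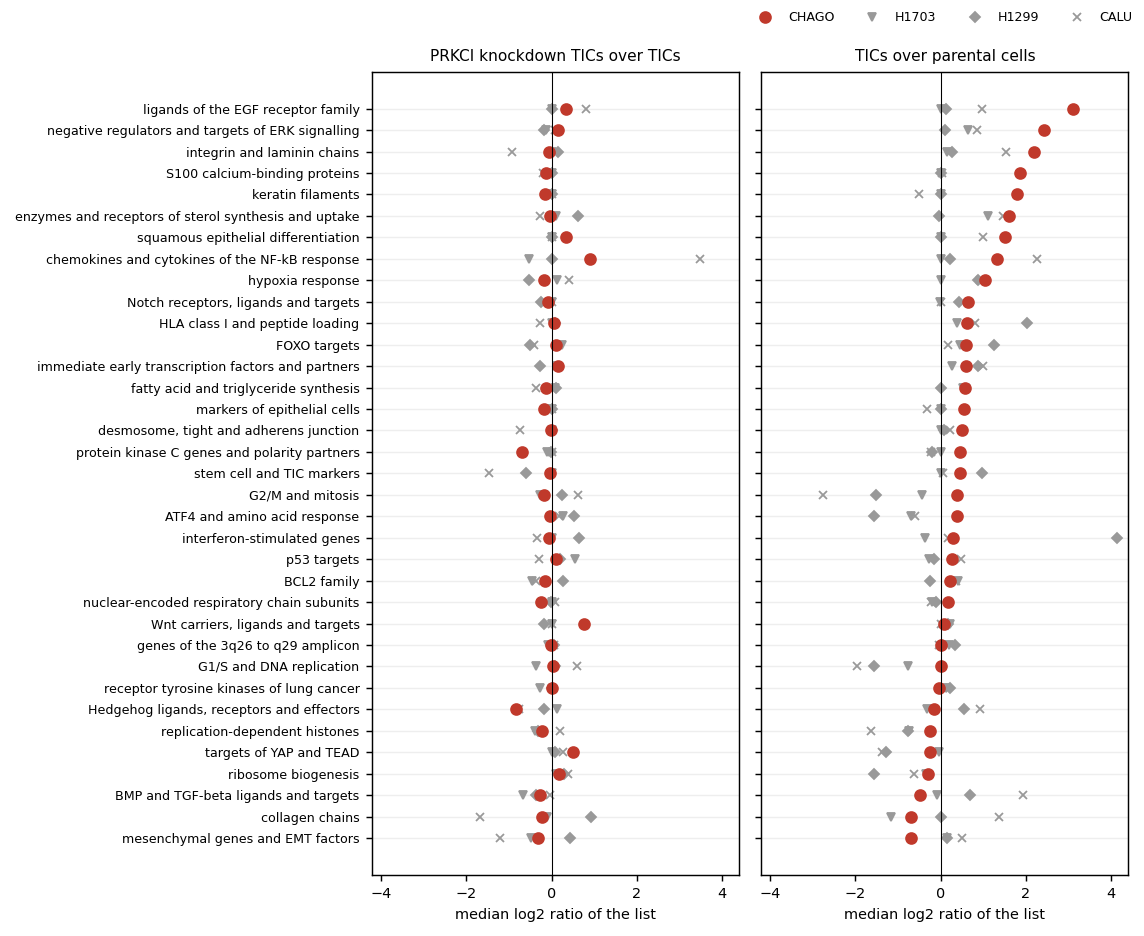
Each point is the median log2 ratio of a gene list (x axis) over its members that entered in CHAGO, for knockdown TICs over TICs on the left and TICs over parental cells on the right, in CHAGO and in the 3 other lines with 1 library per line and state; members without reads in a line count as 0. The 35 CHAGO lists drawn, out of 53 and each with at least 6 members entered, spread between −0.69 and 3.10 in TICs over parental cells and between −0.83 and 0.91 in knockdown TICs over TICs; some lists with fewer members, not drawn, lay outside these ranges.

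The knockdown library stood apart from both others in further genes, and with 1 such library its difference cannot be told apart from that of a single culture. By the margin to both other libraries the genes highest in knockdown TICs included FGF2, PI3, RUNDC3B, ACTR5, PTPRZ1, OXTR and AKAP12. FGF2, basic fibroblast growth factor, had 1145 reads in knockdown TICs, 129 in TICs and 28 in parental cells, 9.59-fold higher than in TICs (7.98 to 11.6). PI3 (elafin), a skin protease inhibitor, had 5248, 691 and 0 reads, 8.20-fold higher than in TICs (7.58 to 8.89). OXTR, the oxytocin receptor, stood at 42.3, 6.68 and 3.19 CPM, 6.33-fold higher (5.78 to 6.95). AKAP12, a scaffold for protein kinases A and C, was the one of these above 100 CPM, at 138, 22.4 and 21.4 CPM, 6.15-fold higher than in TICs (5.85 to 6.46). In FGF2, PI3 and OXTR the TIC library lay between the other two, whereas for AKAP12 the counting interval of TICs over parental cells took in 1 (fold 1.05, 0.976 to 1.12).

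Lowest in knockdown TICs, after PRKCI, were NCAM2, KBTBD3, SOSTDC1, SORBS2, MCC, XYLT1, ANO2, PPARGC1A and HIST2H2AB. NCAM2, a neural adhesion molecule, had 2 reads in knockdown TICs, 276 in TICs and 1242 in parental cells, and KBTBD3 had 21, 1187 and 417. PPARGC1A, a coactivator of mitochondrial genes, stood at 0.870, 9.99 and 24.3 CPM, 11.5-fold lower than in TICs (fold 0.0871, 0.0667 to 0.112). SFRP1, a secreted Wnt antagonist, stood at 1.95, 24.3 and 11.5 CPM. Among the 23 genes with a mean of at least 100 CPM and a ratio past 2-fold, chosen after their values were seen, were CPS1, the entry enzyme of the urea cycle, at 18.5 CPM in knockdown TICs, 112 CPM in TICs and 284 CPM in parental cells, DHRS2, a short-chain dehydrogenase, at 86.5, 290 and 115 CPM, and HIPK2, a nuclear kinase, at 103, 298 and 256 CPM. ARF3, a GTPase of the Golgi and one of the 10 most abundant genes, stood at 2206, 6015 and 5830 CPM, 2.73-fold lower in knockdown TICs than in TICs (fold 0.367, 0.365 to 0.369).

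In some genes the TIC library stood apart from both others. In part of them the knockdown and parental libraries also differed from each other. Highest in TICs were HTR3A, a serotonin-gated channel, with 82 reads in knockdown TICs, 1231 in TICs and 0 in parental cells, LEMD1 with 110, 1548 and 6 reads, PSENEN, a subunit of gamma-secretase, at 3.78, 29.9 and 1.54 CPM, and NRP2, a receptor for semaphorins and VEGF, at 4.47, 26.1 and 2.23 CPM. Lowest in TICs were UGT1A6, with 876, 10 and 258 reads, in a locus whose members share exons, ADAM12, a membrane metalloprotease, at 6.84, 0.879 and 7.41 CPM, SLC38A9, a lysosomal amino acid transporter, at 12.8, 1.75 and 22.4 CPM, and IKBKB, the kinase that activates NF-kB, at 8.45, 0.952 and 7.0 CPM. All 20 genes of these 2 profiles had means of 5 to 20 CPM, where 26.1% of genes passed 2-fold between knockdown TICs and TICs.

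Whether CHAGO differed from the other lines was tested in 1 model over the 12 libraries, as the difference between its change and the mean change of H1703, H1299 and CALU (edgeR quasi-likelihood test, two-sided, adjusted over 14008 genes). The spread came from the other 3 lines with 4 residual degrees of freedom, and the lone CHAGO libraries were assumed to vary like theirs. Nothing says that the libraries came from separate cultures, so p-values measure the spread between these libraries, and each line gives 1 library per state. For TICs against parental cells 5 genes passed an adjusted p of 0.05 (0.0357%), with 941 at an unadjusted p under 0.05, while DESeq2 called 241 (1.72%) and limma voom 0. Knockdown TICs against TICs gave 0 (0.0%) with edgeR, 350 at an unadjusted p under 0.05, 63 with DESeq2 (0.45%) and 0 with limma voom. Knockdown TICs against parental cells gave 6 (0.0428%) with edgeR, 877 at an unadjusted p under 0.05, 235 with DESeq2 (1.68%) and 0 with limma voom.

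CD68 was the gene of smallest p. Its log2 difference of TICs minus parental cells was 9.57 in CHAGO and 0.92, 0.99 and 0.30 in H1703, H1299 and CALU, and the fitted difference from their mean was 9.32 (SE 0.65, edgeR adjusted p = 0.00492). In those 3 lines CD68 was present in parental cells too, at 338, 264 and 218 CPM, so that the CHAGO parental library stood apart at 0.0898 CPM. RAB3B, a GTPase of secretory vesicles (714 reads in knockdown TICs, 274 in TICs and 2 in parental cells), and CTNNAL1, a relative of alpha-catenin (37.8, 29.1 and 2.47 CPM), were also higher in TICs against parental cells of CHAGO than in the other lines, each with an adjusted p of 0.0411. CTNNAL1 was lower in TICs than in parental cells of each other line, with log2 differences of −2.09 for H1703, −2.21 for H1299 and −2.29 for CALU. The other two called, VIM and MSRB3, rested on at most 162 CHAGO reads.

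**Figure D5:**
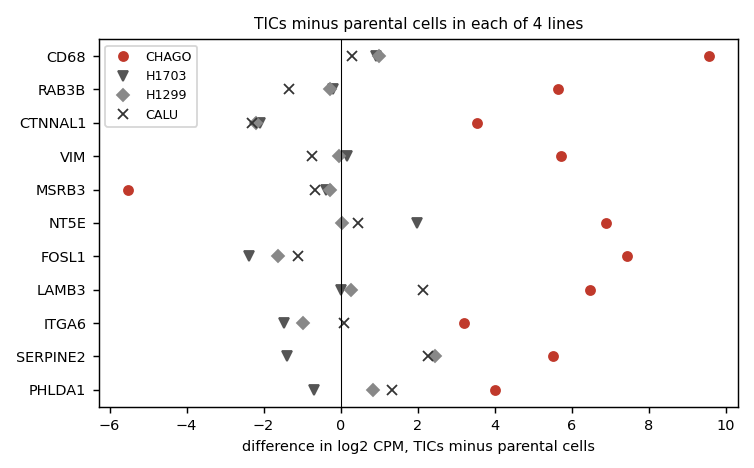
Points show the difference in log2 CPM between TICs and parental cells (x axis, TICs minus parental cells) for 11 genes in CHAGO and the 3 other lines, 1 library per line and state. CHAGO stands apart for CD68 at 9.57, while for SERPINE2 at 5.52 H1299 and CALU lie on the same side, at 2.45 and 2.26.

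Further genes described above missed this test in edgeR, and some passed in DESeq2. NT5E had an adjusted p of 0.0814, FOSL1 of 0.15, ITGA6 of 0.37, LAMB3 of 0.391 and PHLDA1 of 0.393 for TICs against parental cells, and HHAT, SOX2 and PRKCI of 0.992, 0.827 and 0.798 (edgeR, 14008 genes). With DESeq2 the adjusted p was 3.28e-12 for NT5E, 8.8e-11 for FOSL1, 0.000693 for ITGA6, 9.46e-05 for LAMB3 and 0.0027 for PHLDA1, and it stayed above 0.05 for HHAT, SOX2 and PRKCI. For the knockdown, the PRKCI difference between TICs with and without it was −4.71 in CHAGO and −2.53, −2.95 and −2.49 in H1703, H1299 and CALU (unadjusted p = 0.00364 in edgeR, adjusted p = 1.0). AKAP12 differed by 2.62 in CHAGO and by −0.19, 0.15 and 0.22 in the other lines, with an adjusted p of 0.707 in edgeR and 0.000901 in DESeq2.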

How the data were processed

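Per the labels' protocols, Qiagen RNeasy was used for RNA and a NuGEN kit for the libraries. The submitters' processing notes name CASAVA 1.4, TopHat 1.4, HTSeq 0.5.3p3 and build hg19. The deposited raw table holds a read count per gene symbol and library, as the authors made it. The deposited mode-normalized table is a score, each count times 1 factor per library and rounded, as checked on the values, and was used as an alternative scaling. No source states counting by strand, so reads of overlapping and antisense genes cannot be told apart.

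Of 22506 listed genes 4044 had no read in the 12 libraries, and 26 symbols had been turned into dates and are not named. CPM used TMM scaling over the 12 libraries (edgeR 4.0.16, R 4.3.3), and log2 ratios a prior of 0.25 CPM. A gene entered at a mean of 1 CPM over the CHAGO libraries. The 95% intervals are exact binomial on the 2 counts, and against 0 reads a floor of 3 reads in that library was used. The difference between CHAGO and the other 3 lines was fitted by edgeR's robust quasi-likelihood test with line, state and CHAGO-by-state terms and Benjamini-Hochberg adjustment, with DESeq2 1.42.0 and limma 3.58.1 as alternatives. The fit was also run on simulated counts in which only genes set to differ in CHAGO changed otherwise than in the other lines. That simulation cannot show whether the lone CHAGO libraries vary like those of the other lines. The line is the block that pairs libraries, since same-line libraries come from 1 cell line. Python 3.11.15, pandas 2.3.3, scipy 1.17.1 and matplotlib 3.10.9 were used.

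Named genes were PRKCI with ECT2 and SOX2, the Hedgehog genes SHH, HHAT, SMO, PTCH1 and GLI1 to GLI3, the 12 largest ratios each way per comparison and the 10 widest margins per profile (mean of at least 5 CPM), up to 6 members per list by size of ratio, the genes of smallest p against the other lines, and the 10 most abundant. Other list members were named after their values were seen. The members and lists were chosen with earlier results of these data known. XIST and Y-linked genes were left out. Some genes that this rule takes are not reported here.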

Additional observations from a re-analysis of the deposited data

Results flagged for a closer look

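The genes below stand out because the change in CHAGO differed from the mean change of H1703, H1299 and CALU (edgeR quasi-likelihood test, adjusted over 14008 genes). For TICs against parental cells the adjusted p was 0.00492 for CD68 and 0.0411 for each of RAB3B, CTNNAL1, VIM and MSRB3. For knockdown TICs against parental cells it was 0.0036 for CD68, 0.0161 for RAB3B, 0.0365 for CTNNAL1 and 0.0362 for each of LOC100507127, CD44 and DSE. The fitted difference was 9.81 on the log2 scale for CD68, 8.38 for RAB3B and 5.34 for CTNNAL1 in the second comparison, each higher in CHAGO than in 3 of 3 other lines. LOC100507127 had 10663 reads in knockdown TICs, 8592 in TICs and 0 in parental cells of CHAGO, and its fitted difference cannot be read as a size. Among the other lines only CALU expressed it, with 14151 reads in parental cells and 0 in knockdown TICs. H1703 had 0 and 0 reads and H1299 1 and 0 in that order. With DESeq2 its adjusted p was 0.39.

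The remaining calls rest on few CHAGO reads. CD44, a hyaluronan receptor, had 212 reads in knockdown TICs, 5 in TICs and 0 in parental cells of CHAGO, and 0 in all 3 states of H1703. DSE had 0, 218 and 84 reads, VIM 0, 162 and 0, and MSRB3 123, 0 and 114. VIM stood at 785, 1450 and 2070 CPM in TICs of H1703, H1299 and CALU, so its CHAGO values lie far below theirs.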

How the results depend on the processing

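The number of genes past 2-fold depended on the level and the fold asked for. For TICs against parental cells it was 1842 at a mean of at least 5 CPM, 1804 with a threshold of 3-fold and 218 at a mean of at least 100 CPM, a level chosen after seeing the data. For knockdown TICs against TICs it was 3616 with no filter other than a read, 1036, 1081 and 23 in the same order after that, and it came to 1954, 1817 and 279 in the comparison of knockdown TICs with parental cells. With mode-normalized values, list medians for knockdown TICs over parental cells were 1.04 for sterol synthesis, −0.411 for G1/S (−0.173 with library totals), −0.197 for G2/M, −0.972 for histones, −0.358 for the respiratory chain, −0.216 for ATF4 targets and −0.353 for 3q genes, and G2/M was 0.0958 for TICs over parental cells and −0.249 for knockdown TICs over TICs. The sign turned for fatty acid synthesis in knockdown TICs over parental cells (−0.00764) and for the respiratory chain in TICs over parental cells (−0.109). The calls against the other lines, 5 for TICs against parental cells, 0 for knockdown TICs against TICs and 6 between knockdown TICs and parental cells, depended on the test and the lines: 241, 63 and 235 with DESeq2, 0, 0 and 0 with limma voom, 10, 4 and 9 at an adjusted p of 0.10, and 0, 0 and 0 with no replicate block for line. Library totals left 1 call for TICs against parental cells. Leaving out a line gave 0 to 5, 0 to 0 and 0 to 3 calls: without H1703 0, 0 and 3, without H1299 0, 0 and 0, and without CALU 5, 0 and 1. The cause was not tested. Leaving out a CHAGO library ends the comparisons it enters, and depth limits genes near the floor of 3 reads.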

Other observations

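Of 23 genes of Wnt signalling 9 entered. In knockdown TICs against parental cells of CHAGO 6 of the 9 were past 2-fold higher and 0 lower, beside 13.4% and 15.4% of all genes, while 3 lay below 0. In TICs against parental cells 2 were higher and 2 lower, and in knockdown TICs against TICs 3 were higher and 0 lower. Immediate early genes were past 2-fold higher in 10 of 17 and lower in 2 in knockdown TICs against parental cells: FOSB stood at 5.75 CPM in knockdown TICs, 19.5 CPM in TICs and 0.569 CPM in parental cells, while NR4A3, an orphan nuclear receptor, stood at 2.48, 2.09 and 28.4 CPM. SNAI2 (Slug), a repressor of epithelial genes, stood at 21.4, 2.72 and 4.55 CPM, 7.86-fold higher in knockdown TICs than in TICs (6.83 to 9.08). Of 20 stem cell and TIC marker genes 8 entered. In TICs against parental cells 2 of the 8 were past 2-fold higher and 1 lower, beside 13.8% and 14.1% of all genes. The sample labels do not say which markers, if any, were used to obtain these TICs. Of surface markers in general use to sort TICs, PROM1 had 2, 0 and 0 reads and CD44 212, 5 and 0 reads. CD24 stood at 895, 696 and 997 CPM and EPCAM at 610, 665 and 431 CPM.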
